A study of Homo sapiens and Mus musculus with 20 samples.

Results

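A set of 10 genes of non-homologous end joining was followed in the 12 RNA-seq libraries of IMR90, an untransformed fibroblast line from human fetal lung. The 10 are XRCC5, XRCC6, PRKDC, LIG4, XRCC4, NHEJ1, DCLRE1C, TP53BP1, PAXX and RIF1, found by symbol, and every IMR90 library listed all of them among 16683, 16417 and 12013 genes in the A485, MS-275 and pyruvate experiments. The series held 20 libraries in 10 groups of 2. All cells were labelled WT, and each treatment had its own untreated control: A485, an inhibitor of the acetyltransferase p300, was set against Control2, MS-275, which blocks histone deacetylases of class I, against Control3, and pyruvate against Control6. The study describes its pyruvate treatment as given to senescent IMR90 cells. Doses and times of these RNA-seq treatments are not given in the labels. IMR90 is 1 line, so the 2 libraries of a group are not separate donors, and nothing in the labels says whether they were separate cultures. The p-values then measure the spread between these libraries only.

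Non-homologous end joining rejoins broken DNA ends without a template and works throughout the cell cycle, so it is a main route of double-strand break repair in cells that divide little, such as senescent fibroblasts. The Ku heterodimer, encoded by XRCC6 (Ku70) and XRCC5 (Ku80), slides onto the ends and recruits the kinase DNA-PKcs, encoded by PRKDC. Artemis, encoded by DCLRE1C, trims ends that cannot be joined directly, DNA ligase IV (LIG4) seals them in a complex with XRCC4, and NHEJ1 (XLF) and PAXX help to hold and align the ends. 53BP1, encoded by TP53BP1, and its effector RIF1 shield broken ends from resection and so favor end joining over homologous recombination.

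The group was chosen by function with the fold changes of these same comparisons already known, XRCC5 and PRKDC being among the leading genes of the pyruvate experiment. Its values are therefore a description, and members carry no p-value in IMR90. Values are normalized read counts, that is read counts divided by a size factor for each library. A gene is called when limma's adjusted p across all genes tested is under 0.05 and the log2 fold change, treated minus control on the log2(value + 1) scale, is beyond 1 in either direction. All 10 members passed the filter of a mean of 10 or more in each experiment. Libraries held 24179065 to 46971227 reads. All 8 fibroblast markers were listed in every IMR90 library, whereas none of 3 leukocyte markers and at most 1 of 3 epithelial and 1 of 3 endothelial markers were listed.

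On the hg38 genome, the Ku genes lie on chromosome 2 (XRCC5, 216107464 to 216206303, plus strand) and chromosome 22 (XRCC6, 41621163 to 41664048, plus strand), and PRKDC lies on chromosome 8. DCLRE1C lies on chromosome 10 (14897359 to 14954432, minus strand). Of the ligation genes, LIG4 is on chromosome 13 (108207439 to 108218368, minus strand), XRCC4 on chromosome 5 (83077498 to 83353787, plus strand), NHEJ1 on chromosome 2 (219069355 to 219160869, minus strand) and PAXX on chromosome 9 (136992422 to 136993984, plus strand). TP53BP1 is on chromosome 15 (43403061 to 43510728, minus strand) and RIF1 on chromosome 2 (151409883 to 151508013, plus strand). Annotated genes overlap RIF1 (NEB), XRCC4 (TMEM167A), DCLRE1C (SUV39H2), TP53BP1 (TUBGCP4) and NHEJ1, and the strand setting of the counting is not stated, so reads from the shared stretches cannot be assigned with certainty.

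The canonical transcripts differ widely in length and base composition. They run from 808 bases for PAXX to 14662 for RIF1, and their GC content from 35.2% for LIG4, 35.7% for XRCC4 and 36.6% for RIF1 to 66.0% for PAXX. The Ku transcripts are short (XRCC5 3379 bases with 42.5% GC, XRCC6 2122 bases with 48.4% GC), whereas those of PRKDC (13459 bases) and TP53BP1 (10369 bases) are long. These properties matter below, because differences between libraries followed them across all genes, most in the MS-275 and pyruvate experiments. In the A485 experiment this was weaker. There the Spearman rho with GC content was -0.11 for A485 minus Control2, and that with length was 0.20 between the 2 A485 libraries.

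RefSeq promoter sequences (GRCh38.p14) were found for 8 of the 10 members, and XRCC5 and PRKDC had none in the table used. Those of LIG4, the member called in the A485 experiment, and of PAXX and DCLRE1C, which were called in opposite directions in the pyruvate experiment, are shown 5′ to 3′ up to the annotated gene start. They occupy chr13:108218369-108218599 on the minus strand, chr9:136992172-136992421 on the plus strand and chr10:14954433-14954682 on the minus strand. Capitals mark the matches, on either strand, to the GC box (GGGCGG), the CCAAT box, the TATA box (TATAAA) and the ETS motif (CCGGAAG).
LIG4: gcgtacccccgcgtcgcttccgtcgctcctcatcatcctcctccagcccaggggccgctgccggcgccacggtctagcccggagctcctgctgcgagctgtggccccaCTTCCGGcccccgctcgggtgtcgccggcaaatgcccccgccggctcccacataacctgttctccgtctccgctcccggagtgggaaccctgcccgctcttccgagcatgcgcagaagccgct
PAXX: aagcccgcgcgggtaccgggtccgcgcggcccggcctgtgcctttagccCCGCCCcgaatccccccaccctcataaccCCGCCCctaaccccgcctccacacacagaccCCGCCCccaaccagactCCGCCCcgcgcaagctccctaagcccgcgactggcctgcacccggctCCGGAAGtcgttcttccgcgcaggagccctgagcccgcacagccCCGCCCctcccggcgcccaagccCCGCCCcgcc
DCLRE1C: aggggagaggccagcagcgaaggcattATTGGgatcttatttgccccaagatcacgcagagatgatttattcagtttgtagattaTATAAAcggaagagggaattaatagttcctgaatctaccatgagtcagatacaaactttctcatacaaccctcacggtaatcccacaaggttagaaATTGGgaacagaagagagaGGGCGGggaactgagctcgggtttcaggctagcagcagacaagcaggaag

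The promoters differed in these letters. In the 250 bases before the RefSeq start, PAXX held 75.6% GC and 6 GC boxes, LIG4 held 72% GC, no GC box and 1 ETS motif, and DCLRE1C held 45.6% GC, 1 GC box, 2 CCAAT boxes and a TATA box. Over the 8 members with a sequence, 7 held a GC box (42.3% of 27305 promoters of the same length did), 4 held the ETS motif (8.82% of all), 4 held a CCAAT box (33.0% of all) and 1 held a TATA box (11.1% of all). None of the 8 held an E2F motif (TTTCGCGC, TTTCCCGC, TTTGGCGC or TTTGCCGC, 2.79% of all). The motifs overlapped no other motif in the sequences shown, and a match describes letters only. The calls by which these 3 genes were picked were lost when trends with transcript length and GC content were removed. LIG4 was then at 0.98 for A485, and PAXX and DCLRE1C were at 0.26 and 0.48 for pyruvate.

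In RPKM, computed here as reads per kilobase of transcript scaled to each library's total, the Ku genes stood far above the rest of the pathway. Control2 held an RPKM of 204 ± 55.8 (SD, n = 2) of XRCC6 and 117 ± 29.4 of XRCC5, against 24.7 ± 5.72 of PRKDC, 11.3 ± 1.06 of PAXX and 10.2 ± 0.785 of TP53BP1. LIG4 (4.13 ± 0.827), RIF1 (3.62 ± 0.517) and XRCC4 (3.60 ± 0.635) followed and lay within each other's spread. DCLRE1C (1.91 ± 0.0576) and NHEJ1 (0.711 ± 0.200) were lowest. XRCC6 ranked first and XRCC5 second in all 6 IMR90 groups. On this scale Control6 held 210 ± 2.74 of XRCC6, close to Control2, but only 15.2 ± 0.451 of XRCC5, 2.64 ± 0.275 of PRKDC and 0.0898 ± 0.0118 of RIF1, and these controls were not tested against each other.

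**Figure D1:**
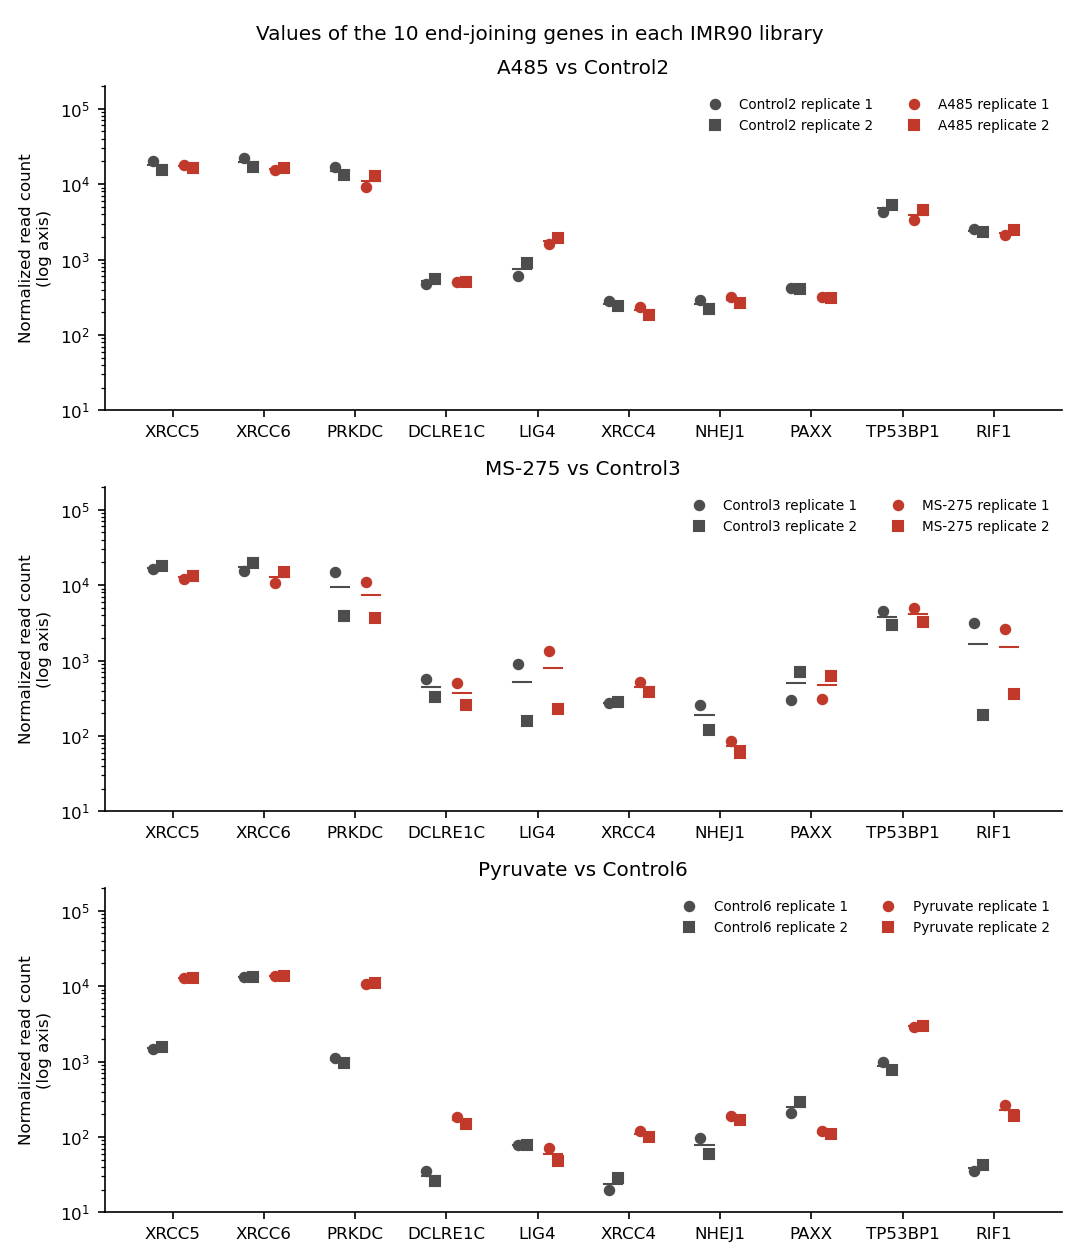
Normalized read count (log axis) of each of the 10 genes in each IMR90 library, 1 panel per experiment, with circles for replicate 1, squares for replicate 2 and short lines for group means. XRCC5 and PRKDC stand about an order of magnitude apart between the Control6 and pyruvate libraries, while XRCC6 is level. In the MS-275 experiment the libraries numbered 2 are low for PRKDC, LIG4 and RIF1 in both groups.

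In the A485 experiment, which asks how gene expression responds when p300 is inhibited, LIG4 was the only member called. It was higher after A485, with 609 and 900 normalized read counts in Control2 and 1618 and 1947 after A485. The groups did not overlap, and the log2 fold change was 1.26 ± 0.25 (SE). Across all 16084 genes tested, 3.31% were called higher and 7.06% lower, and 1 of 10 members was called higher and 0 lower. At an unadjusted p under 0.05, 0 members were lower, against 17.1% of all genes, and edgeR and DESeq2 also called 0 lower. Its value was 0.98, and no longer called, when the trends of log2 values with transcript length and GC content were removed, and it also lost the call without Control2 replicate 1 (0.98), A485 replicate 1 (1.39) or A485 replicate 2 (1.13).

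The end-recognition genes were level or slightly lower after A485. XRCC5 had 20047 and 15522 in Control2 and 17973 and 16600 after A485, within the range of its controls. XRCC6 was at 22343 and 16773 in Control2 and at 15322 and 16147 after A485, and PRKDC was at 16708 and 13331 in Control2 and at 9197 and 12661 after A485. Both A485 libraries lay below both controls for XRCC6 and PRKDC, with log2 fold changes of -0.30 ± 0.21 and -0.47 ± 0.23, neither of which was called. The Ku partners stood in a per-kilobase ratio of XRCC5 to XRCC6 of 0.563 and 0.581 in Control2 and 0.737 and 0.646 after A485.

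DCLRE1C was the most even member, at 481 and 557 in Control2 and 501 and 503 after A485. Among the partners of ligase IV, XRCC4 had 280 and 242 in Control2 and 237 and 186 after A485, and PAXX had 421 and 409 against 316 and 314. The A485 libraries lay below both controls for both genes, with log2 fold changes of -0.31 ± 0.30 and -0.40 ± 0.24. NHEJ1 overlapped between groups, at 295 and 219 in Control2 and 314 and 269 after A485. The per-kilobase ratio of XRCC4 to LIG4, whose products form 1 complex, was 1.14 and 0.669 in Control2 and 0.364 and 0.238 after A485.

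The end-protection genes overlapped between groups. TP53BP1 had 4323 and 5354 in Control2 and 3297 and 4545 after A485 (log2 fold change -0.31 ± 0.22), and RIF1 had 2525 and 2289 against 2086 and 2482 (-0.08 ± 0.18). In all, 4 members (XRCC6, PRKDC, XRCC4 and PAXX) had both A485 libraries below both controls, against 30.7% of all genes, and 1 (LIG4) had both above, against 30.4%. The members' median log2 fold change was -0.19, beside 0.01 for all genes. The sign of these small differences depends on scaling. When libraries were set to 1 total, the median over all genes became 0.40 and the members' values shifted with it, XRCC5 to 0.36, XRCC6 to 0.09, XRCC4 to 0.08, PRKDC to -0.07 and PAXX to -0.00. The summed level of the 8 fibroblast markers was 1357400 and 1511400 in Control2 and 428270 and 502040 after A485, and its part in these values was not tested.

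In the MS-275 experiment, which asks what inhibition of class I deacetylases does, the members are described within replicate number. The libraries numbered 2 stood apart from those numbered 1 in both groups: across 15636 genes, the difference of number 2 minus number 1 had a Spearman rho of -0.50 with transcript length and 0.37 with GC content in Control3, and of -0.48 and 0.46 after MS-275. The summed fibroblast markers were lower in number 2 as well, at 769700 and 632090 in Control3 and MS-275 against 1255600 and 1119800 in number 1. In a fit with no term for the replicate number, 0 of 15883 genes were called (0%) by limma, and 1730 (10.9%) had an unadjusted p under 0.05. None of the 10 members was called or had an unadjusted p under 0.05. Of the members, 5 were lower within both numbers, against 40.4% of all genes, and 3 were higher within both, against 38.6%. Disregarding the numbers, XRCC5, XRCC6 and NHEJ1 had both MS-275 libraries below both controls (19.3% of all genes) and XRCC4 had both above (19.5%).

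NHEJ1, whose product XLF forms filaments with XRCC4 along the break, was the member furthest from its control. It had 256 in Control3 and 86.2 after MS-275 in number 1, and 121 and 59.8 in number 2. The log2 differences were -1.56 and -1.01, and NHEJ1 was the 1 member under -1 within both numbers, as were 4.85% of all genes. The lowest of these values rested on 60 reads. In the fit with no term for the replicate number the log2 fold change was -1.28 ± 0.53, an SE that includes the gap between numbers.

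Both Ku genes were lower after MS-275 in each number. XRCC5 had 16222 and 12069 in Control3 and MS-275 of number 1, and 17873 and 13216 of number 2, ratios of 0.744 and 0.739. XRCC6 had 15462 and 10667 in number 1 and 19761 and 14918 in number 2, ratios of 0.690 and 0.755. Their 2 log2 differences were alike, -0.43 and -0.44 for XRCC5 and -0.54 and -0.41 for XRCC6. PRKDC was also lower in each number, with log2 differences of -0.44 and -0.09. It showed the gap between numbers as well, with 14724 and 10889 in number 1 but 3947 and 3708 in number 2.

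XRCC4 was higher after MS-275 in both numbers, with 275.4 and 515 in number 1 and 279 and 382 in number 2, log2 differences of 0.90 and 0.45. LIG4 was also higher in both, from 893 to 1344 and from 157 to 231, with log2 differences of 0.59 and 0.56. Its control values differed 5.70-fold between numbers, so its treated library of number 2 lay below the control of number 1. PAXX, the shortest and most GC-rich transcript, had more counts in number 2, as both Ku genes did, at 297 and 306 in number 1 and 710 and 631 in number 2, and had log2 differences of 0.04 and -0.17.

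DCLRE1C was lower in both numbers, with 571 and 497 in number 1 and 326 and 254 in number 2. TP53BP1 was slightly higher in both, with 4542 and 4942 in number 1 and 2935 and 3277 in number 2, log2 differences of 0.12 and 0.16. RIF1, the longest transcript of the 10, went in opposite directions, from 3142 to 2633 in number 1 and from 190 to 358 in number 2. Its control values stood 16.5-fold apart. In the fit with no term for the replicate number its log2 fold change was 0.33 ± 1.63. That value ranged from -1.69 to 2.35 when 1 library was left out. Both the SE and this range include the gap between numbers.

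**Figure D2:**
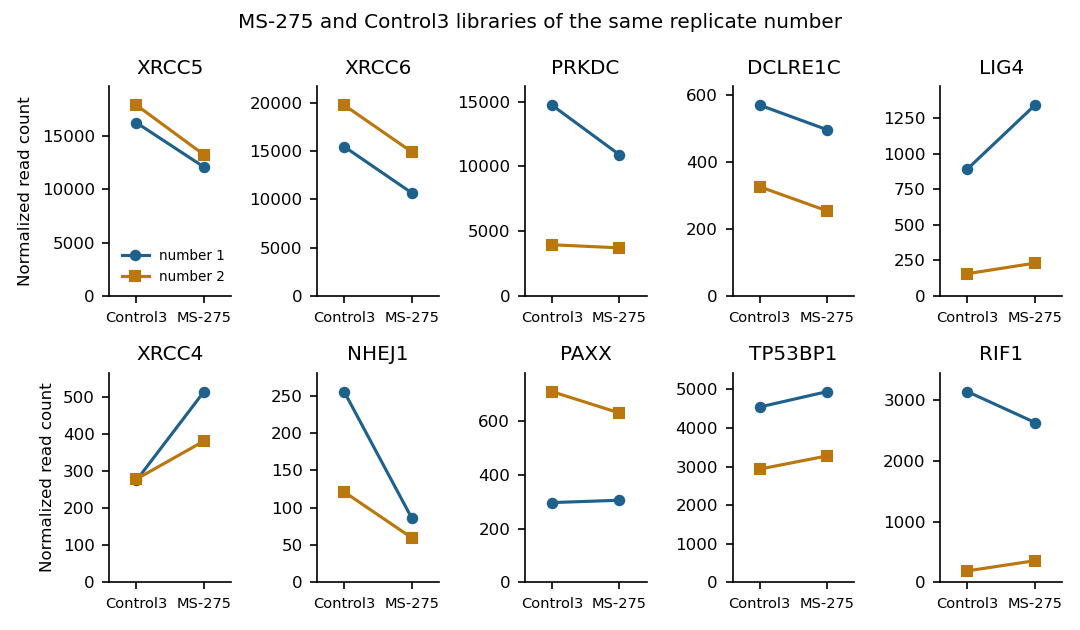
Normalized read count of each gene in the Control3 and MS-275 libraries, joined by replicate number (blue circles, number 1, and orange squares, number 2), each panel with its own axis from 0. XRCC5, XRCC6, PRKDC, NHEJ1 and DCLRE1C run downward and XRCC4, LIG4 and TP53BP1 upward in both numbers. The lines of PRKDC, LIG4 and RIF1 lie far apart.

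The pyruvate experiment asks how gene expression in senescent cells responds to pyruvate, and it held the largest differences of the 3. After pyruvate 7 members were called higher (XRCC5, PRKDC, XRCC4, NHEJ1, DCLRE1C, TP53BP1 and RIF1), and 1, PAXX, was called lower. XRCC6 and LIG4 were not called. The background was broad: of 12013 genes tested, 31% were called higher and 23.1% lower. Both pyruvate libraries lay above both controls for 8 members (45.2% of all genes) and below them for LIG4 and PAXX (45.3%). The members' median log2 fold change was 1.96, beside -0.01 for all genes, and since these contrasts were in view when the group was chosen, nothing is read from that gap.

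The Ku genes parted. XRCC5 had 1487 and 1541 in Control6 and 12835 and 12896 after pyruvate, 8.50 times its control mean, with a log2 fold change of 3.09 ± 0.06. XRCC6 had 13072 and 13228 in Control6 and 13633 and 13617 after pyruvate, a log2 fold change of 0.05 ± 0.05. PRKDC was higher as well, at 1131 and 970 in Control6 and 10715 and 10857 after pyruvate, 10.3 times the control mean (3.36 ± 0.08). Neither XRCC5 nor PRKDC overlapped between groups, and the replicates of each group lay close together.

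The ratio of XRCC5 to XRCC6 within a library does not depend on how libraries were scaled. It can still carry trends with transcript length and GC content, whose removal left log2 fold changes of 1.71 for XRCC5 and 0.23 for XRCC6. Per kilobase the ratio was 0.0714 and 0.0731 in Control6 and 0.591 and 0.595 after pyruvate. In the libraries of the A485 and MS-275 experiments it lay between 0.556 and 0.737. For this pair the pyruvate libraries thus fell inside the range of the other experiments and the Control6 libraries far below it. The ratio of PRKDC to XRCC6 was 0.0136 and 0.0116 in Control6 and 0.124 and 0.126 after pyruvate. The libraries of the A485 and MS-275 experiments ran from 0.0315, in a number 2 library of the MS-275 experiment, to 0.161. Other pairs differed from this. RIF1 over TP53BP1 was 0.0255 and 0.0390 in Control6 and 0.0659 and 0.0448 after pyruvate, while the first experiment ran from 0.302 to 0.447 and the number 2 libraries of the MS-275 experiment had 0.0458 and 0.0772. XRCC4 over LIG4 was 0.621 and 0.885 in Control6 and 4.25 and 5.11 after pyruvate. In the other experiments it ran from 0.238 to 1.14, apart from the number 2 libraries of the MS-275 experiment, at 4.42 and 4.10.

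**Figure D3:**
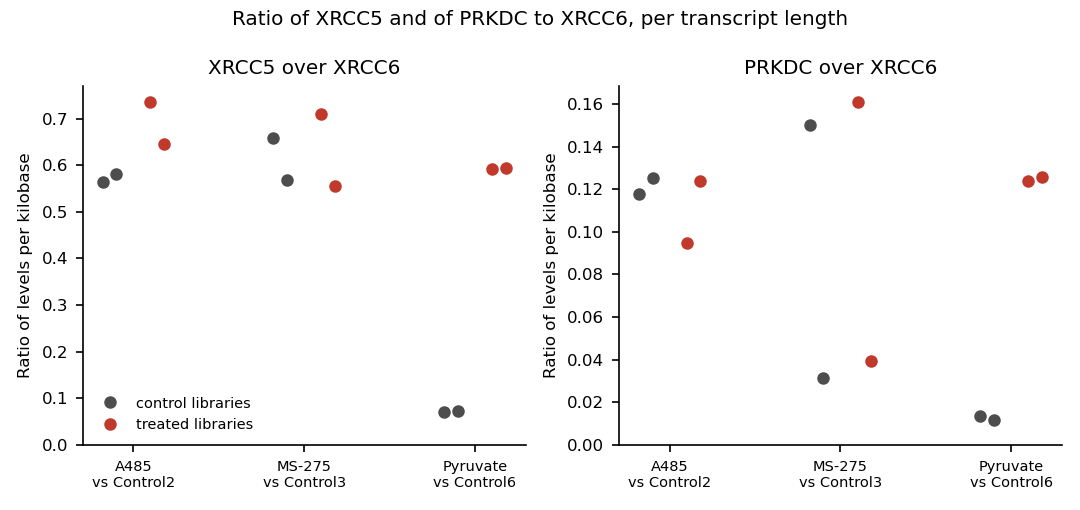
Ratio of XRCC5 (left) and of PRKDC (right) to XRCC6, each per kilobase of transcript, for every IMR90 library, with control libraries in grey and treated libraries in red and axes from 0. The 2 Control6 libraries sit at 0.0714 and 0.0731 on the left, below all 10 others, and at 0.0136 and 0.0116 on the right.

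Artemis and the ligation genes were divided. DCLRE1C had 35.4 and 26.0 in Control6 and 182 and 150 after pyruvate, a log2 fold change of 2.40 ± 0.33. XRCC4 had 19.6 and 28.2 in Control6 and 121 and 98.8 after pyruvate (2.17 ± 0.38). LIG4, its partner in the ligase complex, had 78.6 and 79.2 in Control6 and 70.8 and 48.0 after pyruvate, both below the controls but not called (-0.43 ± 0.34). The per-kilobase ratio of XRCC4 to LIG4 was accordingly 0.621 and 0.885 in Control6 and 4.25 and 5.11 after pyruvate.

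Of the accessory factors, NHEJ1 was higher and PAXX lower. NHEJ1 had 97.2 and 59.7 in Control6 and 190 and 167 after pyruvate (1.21 ± 0.29), and PAXX had 209 and 292 in Control6 and 119 and 109 after pyruvate (-1.11 ± 0.23). Both lost their call without Control6 replicate 2, at 0.87 and -0.87. Counts were low here: 5 members (LIG4, XRCC4, NHEJ1, DCLRE1C and RIF1) had a Control6 library with under 100 reads, and the lowest, XRCC4, had 20.

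The end-protection genes were both higher. TP53BP1 had 981 and 768 in Control6 and 2868 and 2977 after pyruvate, a log2 fold change of 1.75 ± 0.11. RIF1 had 35.4 and 42.3 in Control6 and 267 and 188 after pyruvate, a log2 fold change of 2.51 ± 0.29. Neither overlapped between groups. In the Control6 and the pyruvate libraries alike, RIF1 stood far below its level in the first experiment, where Control2 held 2525 and 2289 counts. It was also low in the number 2 libraries of the MS-275 experiment, at 190 in Control3 and 358 after MS-275. The experiments were normalized separately.

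**Figure D4:**
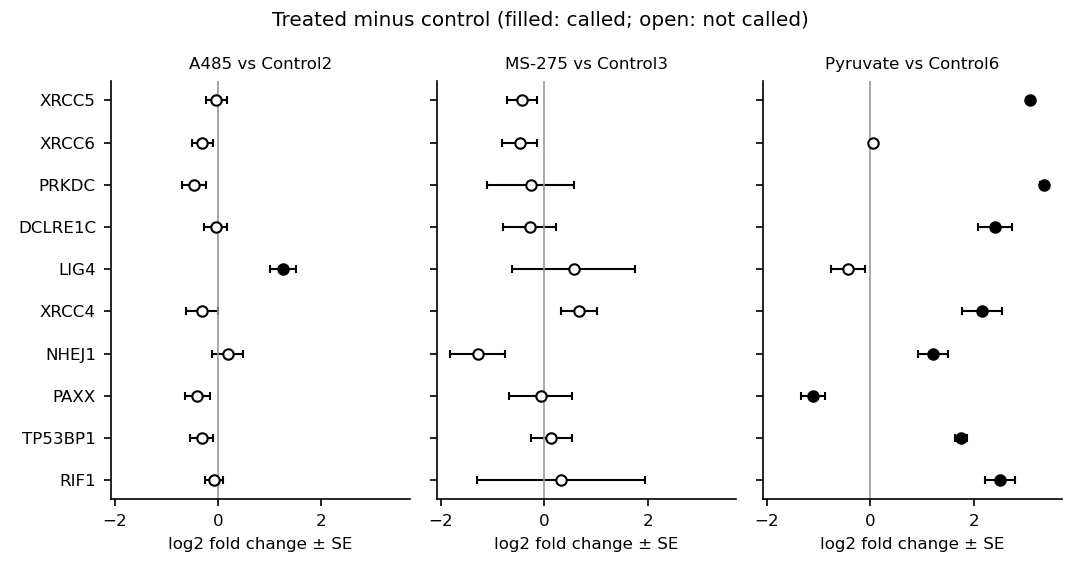
Log2 fold change, treated minus control on the log2(value + 1) scale, of each gene in each IMR90 experiment on a common axis, with bars of ± 1 SE from limma's fit and filled points for called genes. LIG4 alone is filled for A485 (1.26), none for MS-275, and 8 for pyruvate, of which PAXX (-1.11) lies left of 0.

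The pyruvate differences followed base composition across the whole transcriptome. Over 11888 genes the log2 fold change had a Spearman rho of -0.72 with transcript GC content and 0.33 with length, given as a description since genes are not independent. Its median was 1.80 in the quintile of genes lowest in GC and -1.13 in the highest. PAXX, at 66.0% GC, lay at -1.11, beside the median of the highest quintile, and XRCC6, at 48.4% GC, lay near the -0.16 of the middle one. NHEJ1 (1.21) lay above the median of the same middle quintile. In the second-lowest quintile, with a median of 1.20, XRCC5 (3.09), PRKDC (3.36) and TP53BP1 (1.75) lay above it. In the lowest quintile, XRCC4 (2.17), DCLRE1C (2.40) and RIF1 (2.51) lay above its median. LIG4 had the lowest GC content of the 10 and a log2 fold change of -0.43.

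With the trends of length and GC content removed, 2 members were called higher instead of 7, PRKDC (2.29) and XRCC5 (1.71), against 14.8% of all genes tested under that setting. LIG4 was then called lower, at -2.01, as were 14.1% of all genes, and PAXX changed sign to 0.26, not called. XRCC4 (0.87), TP53BP1 (0.80), NHEJ1 (0.58), RIF1 (0.54) and DCLRE1C (0.48) kept their sign without a call. XRCC6 was at 0.23.

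**Figure D5:**
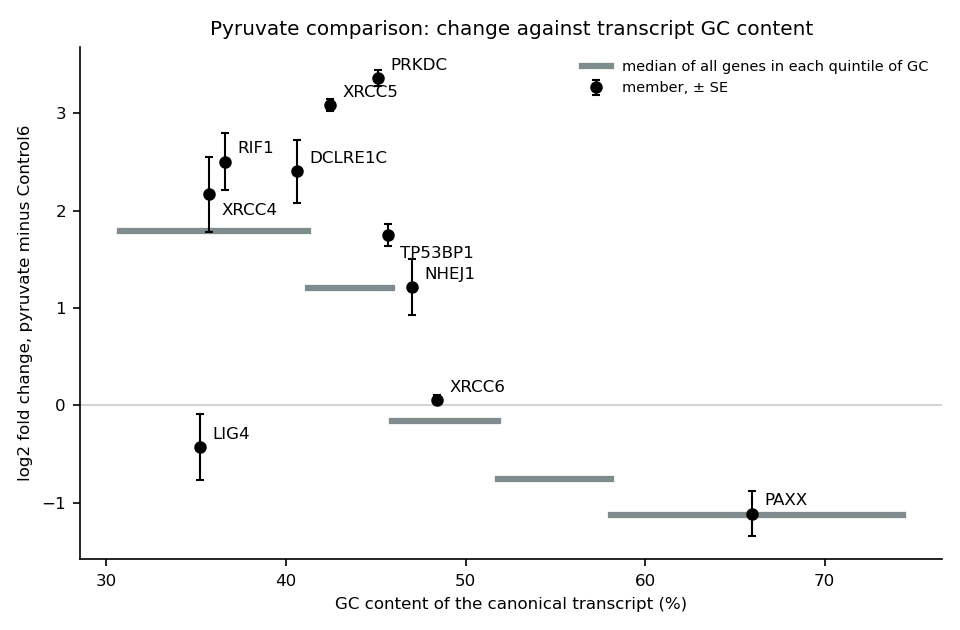
Log2 fold change, pyruvate minus Control6, of each of the 10 genes (points with ± 1 SE) against the GC content of its canonical transcript in percent, with grey lines at the median of all genes in each quintile of GC content. The lines step down from 1.80 to -1.13. XRCC5, PRKDC and NHEJ1 lie well above them and LIG4 well below. TP53BP1, XRCC4, DCLRE1C and RIF1 lie above them by less.

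Markers of proliferation and senescence moved in the same libraries. Of 6 proliferation genes, 5 rose after pyruvate past the call limits (limma, Benjamini-Hochberg), among them MKI67, from 161 and 71.6 to 2995 and 2999. Of all genes, 31% were called higher and 23.1% lower. The trends of length and GC content were not removed from the marker values given here. LMNB1, which encodes the lamin B1 lost in senescence, rose from 107 and 111 to 2347 and 2283. The cyclin-dependent kinase inhibitors CDKN1A (p21) and CDKN2A (p16) fell, from 35198 and 36767 to 9790 and 9869 and from 1628 and 2115 to 197 and 212. In the A485 experiment limma called 0 of these 9 genes, where 3.31% of all genes were called higher and 7.06% lower. At an unadjusted p under 0.05, 2 were lower (17.1% of all genes). After MS-275, 4 had an unadjusted p under 0.05, against 10.9% of all genes. That fit called 0 of all genes, so the lack of calls says nothing about these markers. The proliferation genes had median log2 fold changes of -1.03 for A485 and -2.63 for MS-275. For A485 this rests largely on Control2 replicate 1, since the 2 controls stood far apart for all of these genes but PCNA. CCNB1 had 7713 and 1776 in Control2 and 1681 and 1660 after A485. CDK1 had 2492 and 556 in Control2 and 1643 and 811 after A485. The part of these 9 genes in the members' values was not tested.

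A list of 29 further end-joining and break-response genes gave the setting of the pathway. After A485, 27 were tested, 0 were called higher and 1 lower, where 3.31% and 7.06% of all genes were. An unadjusted p under 0.05 was seen for 4, MAD2L2 and LIG3 being lower and APTX and RNF8 higher. At that limit 17.1% of all genes were lower, a share that covers this 1 direction only. The 1 called was LIG3, the ligase of alternative end joining and single-strand break repair, which fell from 1599 and 1187 to 506 and 558 (log2 fold change -1.37 ± 0.23, limma adjusted p = 0.0186, lower in 2 of 2 libraries). It was -0.98 and not called with equal library totals, nor was it called without Control2 replicate 1 (-1.16), A485 replicate 1 (-1.30) or A485 replicate 2 (-1.44). The 2 ligases thus stood on opposite sides of their controls, LIG4 above and LIG3 below.

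After MS-275, 27 of these genes were tested and limma called 0, as it did over all genes. At an unadjusted p under 0.05 there were 3, all lower, against 10.9% of all genes in either direction. H2AX, the histone variant phosphorylated at breaks, had 2219 and 2511 in Control3 and 573 and 862 after MS-275 (-1.75 ± 0.36, limma adjusted p = 0.243). SHLD1, a subunit of the shieldin complex that acts with 53BP1 and RIF1, had 107 and 224 in Control3 and 19.4 and 41.9 after MS-275 (-2.40 ± 0.63, limma adjusted p = 0.304). LIG3 had 1372 and 1044 in Control3 and 602 and 508 after MS-275. The SEs and p-values of these genes come from the fit with no term for the replicate number. They include the gap between numbers.

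After pyruvate, 23 were tested, of which 10 rose and 4 fell past the call limits, where 31% and 23.1% of all genes did. By role, the calls higher and lower were 3 and 3 of 9 end-processing genes, 4 and 0 of 6 break-sensing genes, 2 and 1 of 4 shieldin-side genes and 1 and 0 of 4 alternative end-joining genes. RNF168, a ubiquitin ligase that marks chromatin for 53BP1, rose from 92.3 and 66.2 to 578 and 600 (2.90 ± 0.21, limma adjusted p = 1.39e-07). NBN, a subunit of the MRN complex that senses breaks, rose from 23.6 and 16.3 to 351 and 374 (4.14 ± 0.30, limma adjusted p = 1.68e-07).

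Among the genes that fell after pyruvate was POLL, the gap-filling polymerase lambda, from 845 and 698 to 319 and 310 (-1.29 ± 0.14, limma adjusted p = 4.29e-06). With the length and GC trends removed, RNF168 (1.74) and NBN (2.29) kept their calls and POLL (-0.27) lost its call.

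The mouse orthologs could be followed only in part in gastrocnemius muscle of WT C57BL/6 animals, aged 11 months for MS-275 and Control4 and 20 months for NALA (sodium lactate) and Control5, 2 libraries a group. Values there go against the labelled tissue. The muscle creatine kinase gene Ckm had 13.4 to 70.9 counts, Myh4 100 to 811 and the skeletal actin gene Acta1 was not listed, while Myh13, Apoc4 and Doc2a, which are no markers of limb muscle, had 267170, 69265 and 133440 or more. The symbols of these files therefore cannot be taken at face value. With that limit, 4 orthologs were tested in each comparison. Dclre1c was called higher after MS-275 with 175 and 110 in Control4 and 479 and 367 after MS-275 (1.59 ± 0.33, limma adjusted p = 0.0278), as were 9.24% of all genes. It was called in 0 of the 4 fits that left out 1 library, where its log2 fold change lay between 1.25 and 1.93. By limma 0 were called lower, against 6.97% of all genes, and 1, Xrcc6, was lower at an unadjusted p under 0.05 (16% of all genes). After NALA 0 were called by limma, where 1.56% of all genes were called higher and 1.79% lower, and 1 ortholog, Xrcc6, had an unadjusted p under 0.05 (26.7% of all genes).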

How the data were processed

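RNA-seq of 12 IMR90 and 8 mouse muscle libraries was used, grouped by title, each treatment against its own numbered control (n = 2). The authors trimmed reads with Trim Galore 0.6.10, aligned them with HISAT2 2.2.1 to hg38 or mm10, counted them with featureCounts 2.0.6 and normalized with DESeq2 1.34.0. The deposited signal is read counts divided by a size factor per library, and gene annotation and strand setting are not given in the sources used here. The step between values gave each library's reads (24179065 to 46971227 in IMR90, 10836858 to 14190054 in muscle).

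Members and gene lists were chosen with earlier results of these data known. All members are named, and of 29 further genes the 2 called with the smallest adjusted p per direction, otherwise the 2 with the smallest adjusted p. A result under this rule is not reported here. log2(value + 1) was tested with limma 3.58.1 (R 4.3.3, trended variance) over genes with a mean of at least 10, with Benjamini-Hochberg adjustment, a threshold of 0.05 and a log2 fold change beyond 1. The test was checked on simulated data. Positions, lengths and GC content of canonical transcripts came from GENCODE on hg38, with a value for 98.4% to 99.0% of genes tested. Replicates differed by more than sampling noise. Other pseudocounts, filters, scalings, fold limits, trend removal, edgeR 4.0.16, DESeq2 1.42.0, a replicate block and leave-one-out fits were tried.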

Additional observations from a re-analysis of the deposited data

How the results depend on the processing

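Among values of the members' log2 fold changes under other settings, 19 of 140 moved by more than the spread between replicates for A485, 2 of 120 for MS-275 and 29 of 120 for pyruvate, and 1 more reversed. Removing the trends of length and GC content took members called higher from 1 to 0 for A485 and from 7 to 2 for pyruvate, took the further genes from 10 to 6 higher and from 4 to 1 lower for pyruvate, and turned PAXX to 0.26. With equal library totals, 0 members were lower for pyruvate, and 2 muscle orthologs were higher for MS-275. Further genes were then 1 higher and 0 lower for A485 and 1 lower for pyruvate. Of all genes, 1677 (10.4%, not 3.31%) were then higher and 5.59% (not 7.06%) lower for A485. For pyruvate 14.5% (not 23.1%) were lower, and in muscle after MS-275 2882 (29.6%), not 877 (9.24%), were higher. With a fold change minimum of 0.58 or none, 7 further genes were lower for pyruvate. Without a fold change minimum 1 muscle ortholog was lower for NALA, and with edgeR 1 was higher. The cause was not tested.

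Leaving out 1 library gave 0 to 1 members higher for A485, 0 to 1 lower for pyruvate, 0 to 2 further genes lower for A485 and 0 to 1 lower for MS-275 (SHLD1 without Control3 replicate 1, POLQ without Control3 replicate 2). In muscle it gave 0 orthologs higher and 0 to 1 lower for MS-275, and 0 to 1 higher for NALA. Of all genes, 532 were called higher for A485, 371 or 411 when Control2 replicate 1 or 2 was left out, and 14 or 11 when A485 replicate 1 or 2 was.

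The replicate block concerns numbers that the labels do not tie to a culture or batch. Deviations of same-numbered libraries correlated at 0.73 for MS-275 in IMR90, 0.32 for A485, 0.00 for pyruvate and -0.01 and -0.11 for NALA and MS-275 in muscle. With the replicate block, 1 member (NHEJ1, -1.28) and 4 further genes (H2AX, LIG3, POLQ and SHLD1) were called lower for MS-275, where 1230 genes were higher and 953 lower. The block moved no other count of members or further genes by over 1.5 times. With the muscle MS-275 numbers crossed, an alternative chosen after seeing the data, 1031 genes were called higher and 699 lower, and 1 ortholog was higher and 0 lower.

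edgeR and DESeq2 were not run on the IMR90 MS-275 and pyruvate libraries. The number of libraries a group, 2, and under 100 reads for 5 members in Control6, limit the precision of all values.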
